A study of Mus musculus with 12 samples.

Results

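The 42 genes described here mark the walls of blood vessels or encode signals that direct vessel growth. They were chosen by name, for the cells they are known to mark and with earlier results of these data known, among the 26264 genes of the deposited count tables: 26 are typical of endothelial cells, 6 of pericytes and 3 of smooth muscle, and 7 encode angiogenic signals or their receptors. All 42 passed the filter on low counts that left 13499 genes for testing, and the lowest count of any of them in any library was 16.

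RNA was sequenced from 12 libraries of mouse tibialis anterior, a fast muscle at the front of the lower leg. The groups, of 4 libraries each, were muscle injected in the left leg with 50 µl of a gel of extracellular matrix at 6 mg per ml, muscle injected in the right leg with 50 µl of phosphate-buffered saline (PBS) as vehicle, and uninjured muscle. The title of the series speaks of recovery from acute and disuse injuries of muscle. Strain, sex, age, the kind of injury, the source tissue of the gel and the time after injection were not stated in the labels. The deposited names give gel and PBS libraries of 1 number the same animal, and give the uninjured libraries other animals and the left leg. Gel and PBS legs thus also differ in side, and PBS and uninjured legs in animal, side, injury and injection, which cannot be told apart. Genes of muscle fibres were abundant in every library: 12 of them, some made in all skeletal fibres, summed to 159003 to 242966 CPM (counts scaled to a common library total) in gel, 236977 to 271789 in PBS and 264888 to 295763 in uninjured libraries.

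Blood vessels in muscle are tubes of endothelial cells held together by junctions of VE-cadherin and claudin-5 and wrapped by pericytes in capillaries and by smooth muscle in arterioles. Vascular endothelial growth factor (VEGF) from fibres and other cells acts on endothelial receptors, chiefly VEGFR2, while VEGFR1 binds the same ligand and acts largely as a trap for it. Angiopoietin 1 from mural cells and fibroblasts activates the endothelial receptor Tie2 and quietens vessels, and angiopoietin 2 from endothelium can oppose it. In bulk muscle, fewer cells of a type and less RNA of a gene per cell cannot be told apart.

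Library totals ran from 15626086 to 22182483 counts. Gel libraries 1, 2 and 4 stood apart from the rest on the first principal component of all genes tested (50.7% of the variance). They lay between -91.4 and -67.4, gel library 3 at 5.39, PBS libraries between 17.2 and 46.5 and uninjured libraries between 21.5 and 37.1. Markers of other cells differed in the same way. In gel against PBS muscle 11 of 12 macrophage markers rose, and their summed level was 1007, 1572, 99.6 and 1826 CPM in gel libraries 1 to 4, 28.4 to 61.0 CPM in PBS libraries and 40.1 to 80.8 CPM in uninjured libraries. Of 10 fibroblast markers 7 rose, with sums of 679 to 4329 CPM in gel libraries, 569 to 1366 CPM in PBS libraries and 726 to 1073 CPM in uninjured libraries, and 7 of 8 tested proliferation genes rose, with sums of 20.6 to 83.9 CPM in gel libraries, 16.6 to 21.97 CPM in PBS libraries and 16.6 to 20.6 CPM in uninjured libraries. Of 12 muscle fibre genes 1 rose and 4 fell. No marker on these 4 lists was at 0 in every library, whereas 4 globin genes of red cells were listed at 0 in all 12 libraries. Their part in the vascular results was not tested.

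Counts were tested with edgeR's quasi-likelihood test over all 12 libraries, and "rose" and "fell" mark genes with a Benjamini-Hochberg adjusted p under 0.05. Each group's 4 libraries were taken as its replicates, and fold changes are log2 values with a standard error (SE).

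Set against PBS muscle, gel muscle had lower levels of a few vascular genes and higher levels of none that passed the test. Of the 42 genes 0 rose and 4 fell, and among all 13499 genes tested 16.6% rose and 13.2% fell (29.8% in either direction). Those that fell were Flt1, which encodes VEGFR1, the endothelial water channel gene Aqp1, the pericyte potassium channel subunit gene Abcc9, and Angpt1, which encodes angiopoietin 1. With the legs paired by animal (replicate block) 3 fell, Ptprb, Aqp1 and Flt1, and neither Abcc9 (adjusted p = 0.0711) nor Angpt1 (0.136) passed. At an unadjusted p under 0.05 there were 8 genes in all in the unpaired fit. The median log2 fold change of the 42 genes was -0.27, where that of all genes tested was 0.04, and 29 of the 42 were negative. The count depended on single libraries: it was 20 lower without gel library 1, where 3500 of 13683 genes were past the threshold, and 0 without gel library 4, where 2456 were. It was 1 without gel library 2 or PBS library 1, and 2 without PBS library 2, PBS library 3 or any 1 uninjured library. In the same order 2794, 3494, 3007, 3053 and 3789 to 3872 of all genes were past the threshold.

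Relative to uninjured muscle, 10 of the 42 genes passed the test in gel muscle and 1 in PBS muscle. Neither count exceeded the share of all genes that passed in either direction, and the counts do not compare gel with PBS muscle. In PBS against uninjured muscle 0 of 42 rose and 1 fell, the endothelial factor gene Sox17, where 2.79% of all genes rose and 3.39% fell (6.17% in either direction). In gel against uninjured muscle 1 rose, Cspg4, and 9 fell, 7 of these endothelial, where 14.5% of all genes rose and 11.1% fell (25.6% in either direction). The medians of the 42 genes were -0.24 and -0.38 in these comparisons, beside 0.00 and 0.03 for all genes tested. The 3 comparisons share their libraries in pairs and are not independent of each other. Against uninjured muscle, the count lower in gel muscle was 23 without gel library 1 and 6 without gel library 4, uninjured library 2 or uninjured library 3. Of all genes 3266, 2275, 2563 and 2510 were past the threshold in these settings, in the same order.

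**Figure D1:**
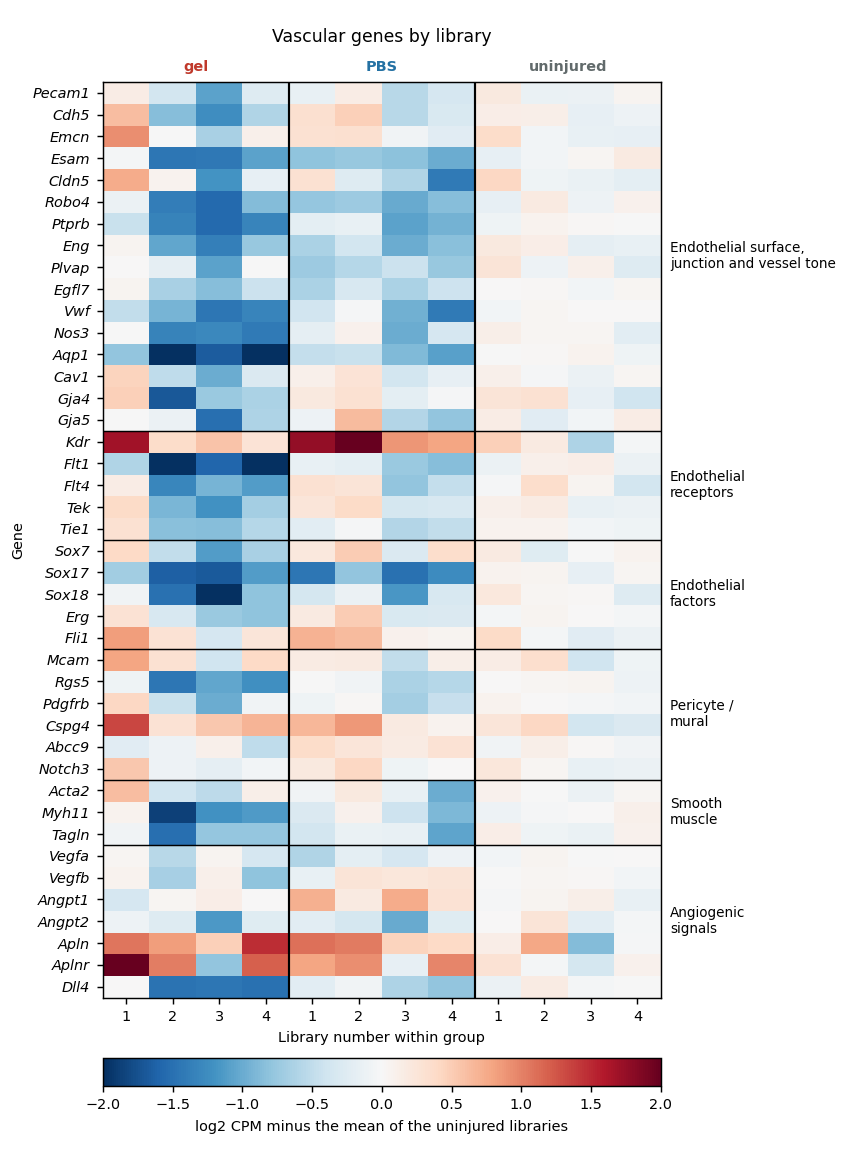
Level of each of the 42 genes (rows, by class) in each of the 12 libraries (columns), as log2 CPM minus the mean of the uninjured libraries. Blue is lower and red higher, and the scale ends at -2 and 2. Gel library 1 is redder than the other gel libraries in nearly every row, and Kdr is red in all gel and PBS libraries.

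Single libraries of a group kept a similar place across many of these genes, which mark the same cells and are not independent of each other. Gel library 1 was the highest of the gel libraries for 26 of 26 endothelial genes, 8 of 9 pericyte and smooth muscle genes and 3 of 7 signalling genes, where it was the highest for 21.9% of all genes tested. Gel library 3 was the lowest for 18 of the 26 endothelial genes, against 34.0% of all genes. PBS libraries 1 and 2 both lay above PBS libraries 3 and 4 for 21 of 26 endothelial genes, against 22.4% of all genes. The mean of the 26 endothelial genes, relative to uninjured muscle on the log2 scale, was 0.16, -0.89, -1.14 and -0.75 in gel libraries 1 to 4, and -0.10, 0.07, -0.60 and -0.53 in PBS libraries 1 to 4. Gel library 1 thus lay above all the PBS libraries, and gel libraries 2 to 4 lay below all of them. Leaving out gel library 1 lowers the gel mean of every gene for which it was the highest. Calls of a fall gained in that way are therefore no independent evidence of a fall. Likewise, a call gained by leaving out the lowest or highest library of a group is no independent evidence of a change.

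Macrophage markers gave another order of the gel libraries. Gel library 3, with the lowest endothelial mean, had the lowest macrophage sum of the gel libraries, and gel library 1, with the highest endothelial mean, lay between gel library 3 and gel libraries 2 and 4 in macrophage sum. Muscle fibre genes summed to 197808, 189192, 242966 and 159003 CPM in gel libraries 1 to 4.

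**Figure D2:**
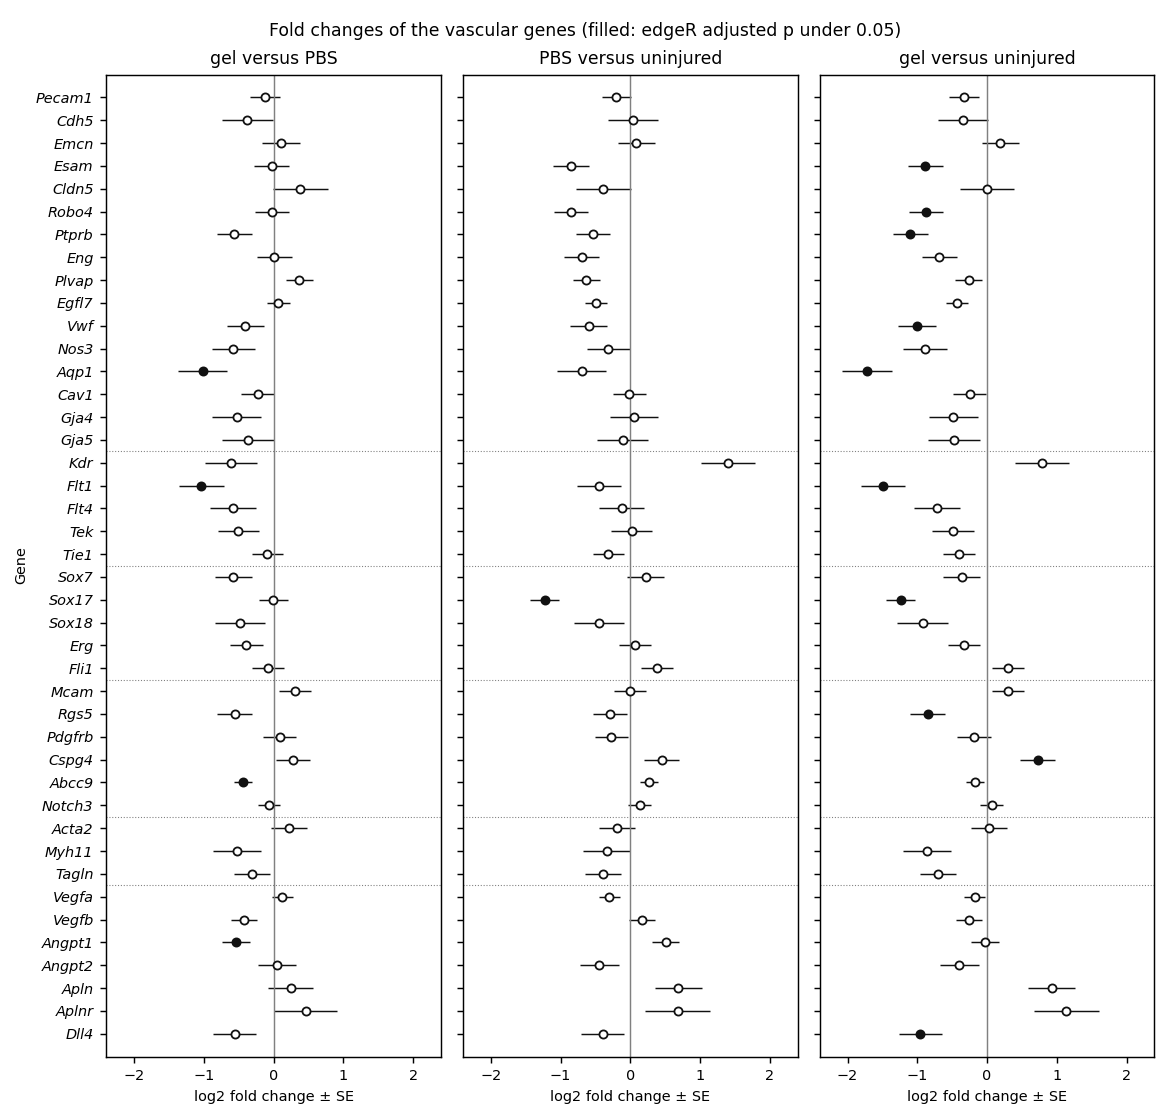
Log2 fold change of each gene with its SE (x axis) in the 3 comparisons, by class from the endothelial surface genes at the top to the angiogenic signals at the bottom. Filled points have an edgeR adjusted p under 0.05: 4 between gel and PBS, 1 between PBS and uninjured, and 10 between gel and uninjured muscle.

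Among the endothelial receptors, mean levels of Flt1 and Kdr, the genes of VEGFR1 and VEGFR2, lay on opposite sides of those in uninjured muscle. Kdr passed in no comparison with edgeR over all 12 libraries. Flt1 was at 52.6, 16.3, 26.5 and 18.9 CPM in gel libraries 1 to 4, at 72.0, 69.9, 47.8 and 43.9 CPM in PBS libraries and at 73.5, 85.5, 87.3 and 73.9 CPM in uninjured libraries. Gel libraries 2 to 4 were below every PBS library, gel library 1 was above PBS libraries 3 and 4, and no gel or PBS library reached the lowest uninjured library. Kdr was at 64.7, 26.0, 30.2 and 24.5 CPM in gel libraries 1 to 4, at 68.4, 80.8, 37.5 and 34.9 CPM in PBS libraries and at 28.2, 22.9, 13.2 and 19.6 CPM in uninjured libraries. All PBS libraries exceeded all uninjured libraries, and gel libraries 2 and 4 lay within the uninjured range.

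Flt1 fell by 1.04 ± 0.32 on the log2 scale between gel and PBS muscle (edgeR adjusted p = 0.0295) and fell by 1.49 ± 0.32 between gel and uninjured muscle (adjusted p = 0.00630). Its log2 fold change between PBS and uninjured muscle was -0.45 ± 0.31 (adjusted p = 0.435). The gel against PBS call was lost without gel library 2 (adjusted p = 0.0531), 3 (0.0617) or 4 (0.0766) or PBS library 1 (0.0677) or 2 (0.0705), and it passed in 12 of the 19 other settings tried. The gel against uninjured call passed in all 18 settings tried. Kdr was at 1.4 ± 0.39 between PBS and uninjured muscle and missed the threshold (edgeR adjusted p = 0.0576), although it passed with DESeq2 (adjusted p = 0.000900) and without gel library 1 (0.0176) or PBS library 4 (0.0427). Over its 18 other settings that adjusted p ran up to 0.151. Between gel and PBS muscle Kdr was at -0.61 ± 0.38 (adjusted p = 0.246), and it fell, at -1.05, without gel library 1 (adjusted p = 0.0382). Relative to uninjured muscle, Kdr in gel muscle was at 0.79 ± 0.38 (edgeR adjusted p = 0.156) and passed in 0 of 18 other settings.

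The balance of both receptor genes separated injected from uninjured libraries. Flt1 counts were 0.812, 0.625, 0.879 and 0.772 times the Kdr counts in gel libraries 1 to 4, 1.05, 0.866, 1.27 and 1.26 times in PBS libraries and 2.61, 3.74, 6.62 and 3.76 times in uninjured libraries. The mean ratio was 0.772 ± 0.107 in gel, 1.11 ± 0.193 in PBS and 4.18 ± 1.71 in uninjured libraries (SD, n = 4 each). Every uninjured library was above every injected one, while the gel and PBS ranges overlapped at gel library 3 and PBS library 2. Gel library 1, which stood apart in level, lay inside the range of the other gel libraries in this ratio, which is given as a description and was not tested.

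**Figure D3:**
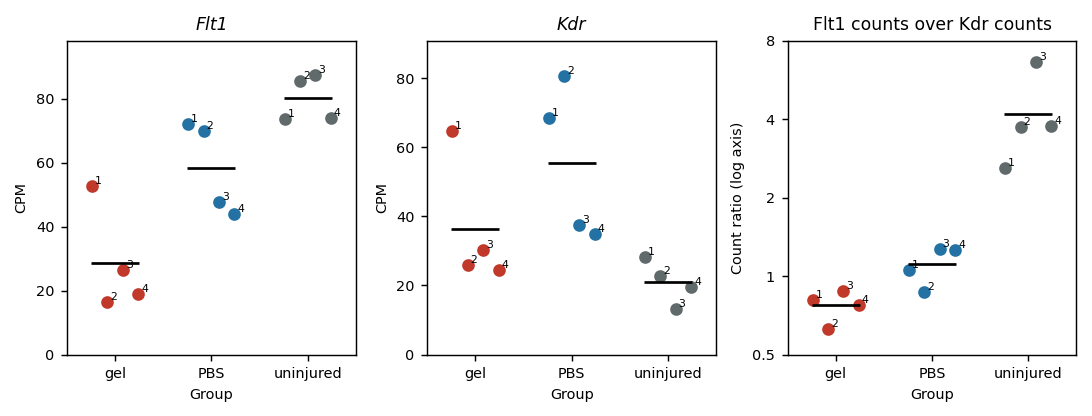
Flt1 (left) and Kdr (middle) in CPM, and Flt1 counts over Kdr counts on a log axis (right), for each library (points, numbered within the group) with the group mean (line). In the ratio the uninjured libraries run from 2.61 to 6.62, and gel and PBS libraries from 0.625 to 1.27.

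The promoters of Flt1, Kdr and Aqp1 are shown for the following reasons. Mean levels of Flt1 and Kdr lay on opposite sides of uninjured muscle, without an edgeR call for Kdr. Flt1 and Aqp1 had the largest fold changes between gel and PBS muscle. Each window holds 250 bases before and 50 after the start that RefSeq gives first, on build GRCm38.p6, an earlier build than the mm39 to which the authors aligned. Capitals mark AGGAAG or CGGAAG, or their reverse complements CTTCCT or CTTCCG, which are common forms of the site of ETS factors such as Erg and Fli1. The windows are chr5:147725962-147726261 on the minus strand for Flt1, chr5:75978406-75978705 on the minus strand for Kdr and chr6:55336049-55336348 on the plus strand for Aqp1.
Flt1: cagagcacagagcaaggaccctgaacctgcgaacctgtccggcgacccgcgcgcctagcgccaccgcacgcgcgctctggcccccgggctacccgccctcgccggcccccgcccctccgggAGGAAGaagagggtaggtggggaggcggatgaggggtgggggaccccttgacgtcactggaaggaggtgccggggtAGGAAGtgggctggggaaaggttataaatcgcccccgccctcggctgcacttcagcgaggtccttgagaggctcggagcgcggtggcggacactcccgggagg
Kdr: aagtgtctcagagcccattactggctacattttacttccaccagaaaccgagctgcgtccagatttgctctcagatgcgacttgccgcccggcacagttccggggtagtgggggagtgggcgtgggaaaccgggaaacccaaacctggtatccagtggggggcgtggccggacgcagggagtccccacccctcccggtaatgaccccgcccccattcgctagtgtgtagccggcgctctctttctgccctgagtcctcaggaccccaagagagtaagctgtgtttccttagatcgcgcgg
Aqp1: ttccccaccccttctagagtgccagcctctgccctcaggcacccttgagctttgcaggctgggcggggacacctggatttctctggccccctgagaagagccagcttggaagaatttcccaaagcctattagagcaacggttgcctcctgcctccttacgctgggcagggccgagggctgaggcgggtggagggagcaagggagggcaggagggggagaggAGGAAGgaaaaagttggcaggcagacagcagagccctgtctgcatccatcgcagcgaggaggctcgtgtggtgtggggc
Flt1 held 2 matches, Aqp1 held 1 and Kdr held 0. A match stood in 46.5% of all 32851 promoters of this length in the RefSeq table, in 10 of the 25 vascular genes found there and in 9 of 15 endothelial ones. A match is a run of letters and not a measured site.

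The other receptor genes did not pass in any comparison over all 12 libraries. Flt4, the gene of VEGFR3, was at 14.4, 5.20, 6.78 and 5.90 CPM in gel libraries 1 to 4, at 15.99, 15.4, 7.44 and 9.24 CPM in PBS libraries and at 12.7, 16.5, 13.4 and 10.004 CPM in uninjured libraries. Only gel libraries 2 to 4 lay under the whole PBS range. Tek, which encodes Tie2, ran from 6.47 to 19.8 CPM in gel, 11.8 to 19.8 CPM in PBS and 13.7 to 17.0 CPM in uninjured libraries, and its partner Tie1 from 36.2 to 81.2 CPM in gel, 43.4 to 64.7 CPM in PBS and 61.8 to 69.1 CPM in uninjured libraries. The log2 fold changes of Tek and Tie1 between gel and PBS muscle were -0.51 ± 0.30 and -0.09 ± 0.22 (edgeR adjusted p = 0.213 and 0.794). Without gel library 1, the highest gel library for each, Flt4, Tek and Tie1 fell between gel and PBS muscle, at -1.02, -0.95 and -0.43 (adjusted p = 0.0130, 0.00634 and 0.0356). Between gel and uninjured muscle they then fell as well, at -1.15, -0.93 and -0.75 (adjusted p = 0.00691, 0.00511 and 0.00223). Each passed in only 1 of the 19 other settings against PBS and 1 of the 18 against uninjured muscle. Over the 19 settings adjusted p reached 0.391, 0.415 and 0.990.

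Of the 16 endothelial surface, junction and vessel tone genes, 0 rose and 1 fell between gel and PBS muscle, 0 passed between PBS and uninjured muscle, and 5 fell between gel and uninjured muscle. The medians were -0.18, -0.44 and -0.48. Among all genes tested 13.2% fell between gel and PBS muscle, 6.17% passed in either direction between PBS and uninjured muscle and 11.1% fell between gel and uninjured muscle. Aqp1 had the largest fold change of the 16 genes in both comparisons of gel muscle. It was at 299, 73.1, 162 and 94.4 CPM in gel libraries 1 to 4, at 370, 380, 280 and 243 CPM in PBS libraries and at 515, 524, 540 and 486 CPM in uninjured libraries. Uninjured libraries were above all others, and gel library 1 was the only gel library inside the PBS range. The log2 fold change was -1.02 ± 0.35 between gel and PBS muscle (edgeR adjusted p = 0.0474) and -1.72 ± 0.36 between gel and uninjured muscle (adjusted p = 0.00549). The gel against PBS call was lost without gel library 2 (adjusted p = 0.0680), 3 (0.0882) or 4 (0.115), PBS library 1 (0.0943), 2 (0.104) or 3 (0.0679), or any 1 uninjured library (0.0583 to 0.0593). It was also lost with upper-quartile scaling (0.0637), with no filter on low counts (0.0865) and with the 2 groups alone (0.109), and held in 6 of the 19 settings, while the gel against uninjured call passed in all 18 settings tried.

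Ptprb, a phosphatase gene whose product restrains Tie2 at endothelial junctions, and Vwf, the gene of von Willebrand factor, fell between gel and uninjured muscle. Ptprb was at 55.2, 29.9, 25.5 and 30.0 CPM in gel libraries 1 to 4, at 65.4, 67.9, 35.7 and 38.8 CPM in PBS libraries and at 71.1, 78.9, 76.6 and 74.7 CPM in uninjured libraries. Vwf was at 14.1, 10.4, 7.20 and 7.86 CPM in gel libraries, at 15.2, 19.5, 10.1 and 7.32 CPM in PBS libraries and at 19.0, 20.3, 19.9 and 19.9 CPM in uninjured libraries. For both genes all gel libraries lay below all uninjured ones, and the PBS libraries overlapped the gel libraries. Ptprb fell by 1.10 ± 0.25 (edgeR adjusted p = 0.00733) and Vwf fell by 1.00 ± 0.27 (adjusted p = 0.0143), and both calls passed in all 18 settings tried. Between gel and PBS muscle Ptprb was at -0.57 ± 0.25 (adjusted p = 0.105) and passed when legs were paired by animal (adjusted p = 0.0371) and when gel library 1 was left out (adjusted p = 0.00937); its adjusted p reached 0.253 over the 19 settings.

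Esam, an endothelial adhesion molecule gene, and Robo4, an endothelial guidance receptor gene, had PBS levels well under the uninjured ones and gel levels that spread further. Esam was at 56.0, 21.0, 21.2 and 27.4 CPM in gel libraries 1 to 4, at 32.8, 33.9, 32.6 and 28.8 CPM in PBS libraries and at 51.5, 55.5, 58.9 and 65.5 CPM in uninjured libraries. Robo4 was at 62.1, 25.7, 22.8 and 36.9 CPM in gel libraries, at 39.1, 40.5, 33.3 and 37.3 CPM in PBS libraries and at 59.9, 76.2, 62.7 and 71.6 CPM in uninjured libraries. The PBS libraries lay close together and below every uninjured library for both genes, while gel library 1 lay inside the uninjured range. Between gel and uninjured muscle Esam fell by 0.88 ± 0.26 (edgeR adjusted p = 0.0234) and Robo4 fell by 0.87 ± 0.25 (adjusted p = 0.0203). The Esam call was lost without gel library 4 (adjusted p = 0.0586) or uninjured library 3 (0.0509) or 4 (0.0566), and the Robo4 call without uninjured library 2 (0.0520), and both were lost with the 2 groups alone (0.0650 for Esam and 0.0575 for Robo4). In gel against PBS muscle both were at -0.03, and without gel library 1 Esam fell, at -0.47 (adjusted p = 0.0177). Set against uninjured muscle, PBS muscle had both at -0.85, and both missed the threshold (adjusted p = 0.0692 for Esam and 0.0601 for Robo4), and both passed without gel library 1, 2 or 3, with adjusted p for Esam of 0.000682, 0.0413 and 0.0420 and for Robo4 of 0.00247, 0.0381 and 0.0188.

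Pecam1, the gene of the adhesion molecule CD31, and Cdh5, the gene of VE-cadherin, are general endothelial markers, and neither passed in any comparison. Pecam1 was at 89.9, 63.2, 38.7 and 68.3 CPM in gel libraries 1 to 4, at 73.4, 90.6, 55.6 and 64.3 CPM in PBS libraries and at 93.3, 73.9, 75.4 and 84.2 CPM in uninjured libraries. Cdh5 was at 258, 93.7, 70.8 and 111 CPM in gel libraries, at 210, 233, 114 and 136 CPM in PBS libraries and at 186, 184, 150 and 158 CPM in uninjured libraries. The groups overlapped for both genes, and for Cdh5 the gel libraries spread beyond the PBS and uninjured ranges at both ends. The log2 fold changes between gel and PBS muscle were -0.13 ± 0.21 for Pecam1 and -0.38 ± 0.36 for Cdh5 (edgeR adjusted p = 0.684 and 0.461). Without gel library 1 Cdh5 fell, at -0.92 (adjusted p = 0.0134).

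The remaining 9 surface genes had no call with edgeR over all 12 libraries. They were Emcn, Cldn5, Eng, Plvap, Egfl7, Nos3, Cav1, Gja4 and Gja5, with gel against PBS log2 fold changes from -0.58 for Nos3, the endothelial nitric oxide synthase gene, to 0.38 for Cldn5, the gene of claudin-5. Without gel library 1, Nos3 fell between gel and PBS muscle at -1.05 (adjusted p = 0.00385), Gja4 at -1.04 (0.0116) and Cav1 at -0.56 (0.0305). Plvap rose there, at 0.55 (adjusted p = 0.00307), without gel library 3, its lowest gel library. Between gel and uninjured muscle Nos3, Eng and Egfl7 missed the threshold with edgeR (adjusted p = 0.0538, 0.0598 and 0.0615) and passed with DESeq2 (0.0118, 0.0210 and 0.0451) and limma voom (0.0229, 0.0400 and 0.0480). The PBS libraries lay wholly below the uninjured ones for Eng, Plvap and Egfl7, as they also did for Esam, Robo4, Ptprb and Aqp1. Eng, a co-receptor gene of the TGF-beta family, ran from 46.0 to 122 CPM in gel, 59.2 to 92.0 CPM in PBS and 105 to 135 CPM in uninjured libraries. Plvap, which builds the diaphragms of fenestrae and caveolae, ran from 15.4 to 32.7 CPM in gel, 19.0 to 24.04 CPM in PBS and 27.2 to 38.8 CPM in uninjured libraries. Across the 42 genes the PBS libraries were wholly below the uninjured ones in 10 and wholly above in 3, which are Kdr, Abcc9 and Angpt1. Groups did not overlap in these directions for 10.2% and 10.4% of all genes tested.

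Sox17 gave the clearest result of the endothelial factors. This gene, whose SoxF-family product helps specify arterial endothelium, was at 18.6, 9.70, 9.40 and 13.8 CPM in gel libraries 1 to 4, at 11.1, 17.4, 10.6 and 12.7 CPM in PBS libraries and at 31.7, 31.6, 26.97 and 31.2 CPM in uninjured libraries. Gel and PBS libraries filled the same range, and all 8 lay below every uninjured library. The log2 fold change was -1.23 ± 0.21 between PBS and uninjured muscle (edgeR adjusted p = 0.00327), -1.24 ± 0.21 between gel and uninjured muscle (adjusted p = 0.000960) and -0.01 ± 0.21 between gel and PBS muscle (adjusted p = 0.987). Both calls passed in all 18 settings tried, and adjusted p was at most 0.0169 for PBS and 0.00430 for gel against uninjured muscle.

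The related gene Sox7 did not follow. It was at 20.8, 11.2, 7.20 and 9.98 CPM in gel libraries 1 to 4, at 18.2, 22.3, 12.8 and 20.2 CPM in PBS libraries and at 17.8, 13.3, 15.5 and 16.5 CPM in uninjured libraries, with overlap between all groups. Its log2 fold change between PBS and uninjured muscle was 0.22 ± 0.27 (edgeR adjusted p = 0.690), and between gel and PBS muscle -0.58 ± 0.27 (adjusted p = 0.114). Sox17 counts were 1.11 ± 0.271 times the Sox7 counts in gel, 0.712 ± 0.110 times in PBS and 1.94 ± 0.294 times in uninjured libraries (SD, n = 4 each). The uninjured ratios, 1.73 to 2.37, lay above those of all gel libraries, 0.869 to 1.39, and gel libraries lay above all PBS libraries, 0.609 to 0.830. Erg, an ETS factor gene, was at 18.7, 12.1, 9.03 and 8.67 CPM in gel libraries, at 17.1, 21.6, 12.3 and 12.4 CPM in PBS libraries and at 14.8, 15.8, 15.3 and 14.8 CPM in uninjured libraries. The groups overlapped, and Erg, Fli1 and Sox18 had no call in any comparison over all 12 libraries. Without gel library 1, Sox7, Erg and Sox18 fell between gel and PBS muscle, at -0.96, -0.68 and -0.91 (adjusted p = 0.00582, 0.0223 and 0.0396), and between gel and uninjured muscle, at -0.74, -0.61 and -1.36 (adjusted p = 0.0150, 0.0346 and 0.00784). Sox18 also passed with DESeq2 between gel and uninjured muscle (adjusted p = 0.0161).

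**Figure D4:**
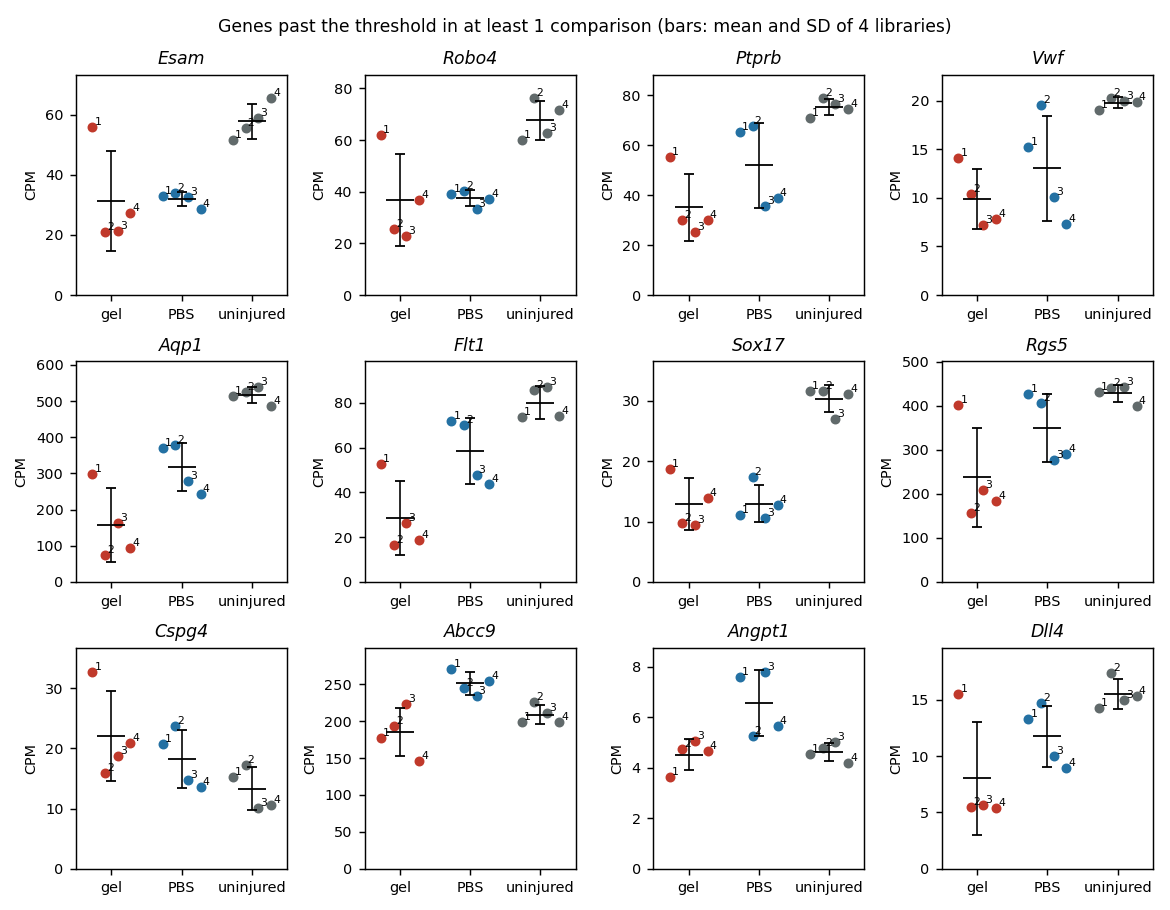
CPM of the 12 genes past the threshold in at least 1 comparison, for each library (points, numbered within the group) with the group mean and SD (bars, n = 4). Gel library 1 is the highest gel point in every panel but those of Abcc9 and Angpt1, and the Sox17 points of gel and PBS muscle all lie at or below 18.6 CPM.

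Pericyte genes were split. Abcc9 encodes the SUR2 subunit of potassium channels that respond to ATP, and it is also made in muscle fibres, so that its level here is not that of pericytes alone. It was at 177, 194, 223 and 146 CPM in gel libraries 1 to 4, at 270, 245, 235 and 254 CPM in PBS libraries and at 199, 226, 211 and 199 CPM in uninjured libraries. All gel libraries lay below all PBS libraries, and all PBS libraries lay above all uninjured ones. Of the 42 genes Abcc9 and Angpt1, 2 in all, lay wholly lower in gel than in PBS libraries and 0 wholly higher, where 9.74% and 10.4% of all genes tested did. Abcc9 fell by 0.44 ± 0.13 between gel and PBS muscle (edgeR adjusted p = 0.0197), and its log2 fold change was 0.27 ± 0.13 between PBS and uninjured muscle (adjusted p = 0.241) and -0.17 ± 0.13 between gel and uninjured muscle (adjusted p = 0.344). Pairing the legs by animal ended the call (adjusted p = 0.0711), as did leaving out gel library 4 (0.0611), and it passed in 16 of the 19 settings.

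Rgs5, a regulator of G-protein signalling and a marker of pericytes, fell between gel and uninjured muscle. It was at 401, 157, 208 and 183 CPM in gel libraries 1 to 4, at 426, 406, 276 and 289 CPM in PBS libraries and at 431, 439, 443 and 400 CPM in uninjured libraries. Gel library 1 stood within the uninjured range and the other gel libraries below all others. Rgs5 fell by 0.85 ± 0.25 on the log2 scale in that comparison (edgeR adjusted p = 0.0228), and the call was lost without gel library 3 (adjusted p = 0.0558) or 4 (0.0593) or uninjured library 2 (0.0503) or 3 (0.0514). Between gel and PBS muscle Rgs5 was at -0.56 ± 0.25 (adjusted p = 0.104), and it fell, at -0.94, without gel library 1 (adjusted p = 0.00352).

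Cspg4, the gene of the proteoglycan NG2 of pericytes and other cells, rose between gel and uninjured muscle. It was at 32.8, 15.9, 18.8 and 20.9 CPM in gel libraries 1 to 4, at 20.7, 23.7, 14.8 and 13.6 CPM in PBS libraries and at 15.3, 17.3, 10.1 and 10.6 CPM in uninjured libraries, and gel library 2 lay inside the uninjured range. The rise was 0.73 ± 0.25 (edgeR adjusted p = 0.0472), and the call held in 6 of the 18 other settings. It was lost without gel library 1 (0.47, adjusted p = 0.138) or 4 (0.0903), PBS library 1 (0.0589), 3 (0.0528) or 4 (0.0502), or uninjured library 1 (0.0664), 3 (0.133) or 4 (0.127). Pdgfrb, the receptor gene for the growth factor that recruits pericytes, was at 94.6, 52.2, 35.5 and 67.7 CPM in gel libraries, at 67.1, 72.5, 44.3 and 51.9 CPM in PBS libraries and at 74.8, 71.5, 70.2 and 68.4 CPM in uninjured libraries. Its log2 fold changes lay between -0.27 and 0.08 in the 3 comparisons, and the groups overlapped in each. The mural genes Mcam and Notch3 had no call, with log2 fold changes from -0.07 to 0.31.

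The 3 smooth muscle genes encode proteins of the contractile apparatus, and with edgeR over all 12 libraries 0 of 3 passed in any comparison. Acta2, the gene of smooth muscle actin, was at 139, 68.2, 63.0 and 97.5 CPM in gel libraries 1 to 4, at 85.9, 103, 81.8 and 45.4 CPM in PBS libraries and at 96.0, 89.4, 83.2 and 93.01 CPM in uninjured libraries. Myh11, the smooth muscle myosin gene, was at 61.3, 15.9, 25.3 and 26.5 CPM in gel libraries, at 48.0, 61.8, 44.0 and 31.3 CPM in PBS libraries and at 54.8, 57.7, 58.9 and 63.0 CPM in uninjured libraries. Tagln, which encodes an actin-binding protein, was at 53.2, 19.5, 32.5 and 32.5 CPM in gel libraries, at 43.2, 51.0, 50.2 and 26.8 CPM in PBS libraries and at 61.2, 52.5, 50.7 and 59.3 CPM in uninjured libraries. Gel libraries 2 to 4 were below all uninjured libraries for Myh11 and Tagln, which gel library 1 was not. Relative to uninjured muscle, the log2 fold change in gel muscle was 0.02 ± 0.26 for Acta2, -0.86 ± 0.34 for Myh11 and -0.70 ± 0.26 for Tagln (edgeR adjusted p = 0.958, 0.0852 and 0.0642). Without gel library 1 Myh11 and Tagln both fell, at -1.38 and -0.99 (adjusted p = 0.000797 and 0.00727). With DESeq2 over all libraries both passed between gel and uninjured muscle as well (adjusted p = 0.0207 and 0.0248). In that comparison Myh11 also passed with limma voom (adjusted p = 0.0427), and Tagln without PBS library 4 (0.0271).

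Among the signals, the angiopoietins were low and the VEGF genes abundant. Angpt1 was at 3.64, 4.73, 5.07 and 4.66 CPM in gel libraries 1 to 4, at 7.60, 5.27, 7.79 and 5.64 CPM in PBS libraries and at 4.55, 4.80, 5.003 and 4.18 CPM in uninjured libraries. All PBS libraries were above all gel and all uninjured libraries, and gel and uninjured libraries overlapped. Angpt1 fell by 0.54 ± 0.20 between gel and PBS muscle (edgeR adjusted p = 0.0484), while its log2 fold change was 0.51 ± 0.20 between PBS and uninjured muscle (adjusted p = 0.138) and -0.03 ± 0.20 between gel and uninjured muscle (adjusted p = 0.926). Pairing the legs by animal ended this call too (adjusted p = 0.136), and so did leaving out gel library 1 (0.114), 2 (0.0750) or 4 (0.0847), PBS library 1 (0.118) or 3 (0.126), or any 1 uninjured library (0.0547 to 0.0582), and it held in 6 of the 19 settings. Angpt2 was at 3.53, 3.17, 1.65 and 3.204 CPM in gel libraries, at 3.26, 2.94, 1.83 and 3.18 CPM in PBS libraries and at 3.81, 4.56, 3.24 and 3.67 CPM in uninjured libraries. Its log2 fold change was 0.05 ± 0.28 between gel and PBS muscle (adjusted p = 0.916), with library 3 the lowest of both groups.

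Vegfa, the principal VEGF gene, was at 448, 297, 456 and 348 CPM in gel libraries 1 to 4, at 287, 382, 345 and 407 CPM in PBS libraries and at 422, 453, 435 and 441 CPM in uninjured libraries. The PBS libraries lay below all uninjured ones and the gel libraries on both sides of them. The log2 fold change was 0.12 ± 0.15 between gel and PBS muscle and -0.30 ± 0.15 between PBS and uninjured muscle (edgeR adjusted p = 0.570 and 0.261). Vegfb, a ligand of VEGFR1 made by muscle fibres, was at 308, 185, 315 and 168 CPM in gel libraries, at 265, 351, 344 and 351 CPM in PBS libraries and at 291, 301, 296 and 283 CPM in uninjured libraries. Gel libraries 2 and 4 were below every other library, and the log2 fold change between gel and PBS muscle was -0.43 ± 0.19 (adjusted p = 0.0961). Without gel library 1 or 3, its highest gel libraries, Vegfb fell, at -0.56 and -0.58 (adjusted p = 0.0423 and 0.0117).

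Dll4, the gene of the Notch ligand that restrains sprouting, fell between gel and uninjured muscle. It was at 15.5, 5.49, 5.62 and 5.42 CPM in gel libraries 1 to 4, at 13.3, 14.7, 10.02 and 8.94 CPM in PBS libraries and at 14.3, 17.4, 15.0 and 15.3 CPM in uninjured libraries. Gel libraries 2 to 4 were nearly alike and below all other libraries, and gel library 1 was above every PBS library. Dll4 fell by 0.96 ± 0.31 (edgeR adjusted p = 0.0372), and the call was lost without gel library 2 (adjusted p = 0.0832), 3 (0.0648) or 4 (0.0888) or any 1 uninjured library (0.0577 to 0.0842). It was also lost with upper-quartile scaling (0.0597), with no filter (0.0532) and with the 2 groups alone (0.0705), and held in 8 of the 18 settings. In gel against PBS muscle Dll4 was at -0.56 ± 0.31 (adjusted p = 0.188), and it fell, at -1.10, without gel library 1 (adjusted p = 0.00271). Apln and Aplnr, the genes of apelin and of its receptor on endothelium, had log2 fold changes of 0.93 ± 0.34 and 1.14 ± 0.46 between gel and uninjured muscle without passing (edgeR adjusted p = 0.0541 and 0.0968). Apln passed there with DESeq2 (adjusted p = 0.0338), upper-quartile scaling (0.0437) and limma voom (0.0498), and without uninjured library 2 (0.0251). Aplnr ran from 8.79 CPM in gel library 3 to 60.7 CPM in gel library 1, from 13.5 to 29.9 CPM in PBS libraries and from 11.9 to 18.6 CPM in uninjured libraries. Without gel library 3, the lowest gel library for both, Apln and Aplnr rose, at 1.06 and 1.44 (adjusted p = 0.0167 and 0.00262).

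Levels of different genes can be set beside each other only per length, and exon lengths from GENCODE vM21 on GRCm38, an annotation other than the one the authors used, were taken for this. Per kilobase of exon, Vegfb, Aqp1 and Vegfa were the most abundant of the 42 genes in uninjured muscle, at 228 ± 6.02, 196 ± 8.66 and 124 ± 3.59 CPM per kilobase (SD, n = 4). In gel muscle the same genes were at 191 ± 61.1, 59.8 ± 38.7 and 110 ± 22.1. Flt1 exceeded Kdr per kilobase in uninjured muscle, at 7.30 ± 0.673 and 3.54 ± 1.06, whereas in gel muscle Flt1 was at 2.61 ± 1.51 and Kdr at 6.14 ± 3.22. In PBS muscle too the mean of Flt1 was below that of Kdr, at 5.33 ± 1.33 and 9.35 ± 3.84. Gja5, an arterial connexin gene, was the lowest, at 0.377 ± 0.159 in gel and 0.525 ± 0.0665 in uninjured muscle.

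A further scale sets each endothelial gene against the mean of the other 25 in the same library. It gives the place of each gene relative to the others, and does not tell endothelial RNA from that of other cells. It was chosen after the data had been seen and carries no test. On this scale gel libraries lay wholly below PBS libraries for Flt1, at -1.45 to -0.47 in gel and -0.34 to -0.05 in PBS libraries, where the uninjured mean is 0. They lay wholly above PBS libraries for Eng, at -0.23 to -0.0047 in gel against -0.55 to -0.32 in PBS libraries, and for Tie1, at 0.06 to 0.30 in gel against -0.12 to 0.03 in PBS libraries. Off this scale the log2 fold changes of Eng and Tie1 between gel and PBS muscle were 0.01 ± 0.25 and -0.09 ± 0.22. Their higher place is thus relative to the other genes and is not a rise of their own. The other 23 genes overlapped between gel and PBS libraries, Aqp1 among them at gel library 3. PBS libraries lay wholly above uninjured ones for Kdr, Cav1, Tek, Sox7, Erg and Fli1, and wholly below for Sox17, Aqp1, Eng and Robo4. Kdr had the largest shift of these, at 1.37 to 2.00 in PBS and 1.06 to 1.78 in gel libraries, against -0.56 to 0.38 in uninjured libraries. Gel libraries lay wholly above uninjured ones for 5 of the 26 genes and wholly below for 5. On this scale a lower place of some genes raises that of others. No share over all genes was computed for it, so whether these counts are unusual is not known.

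**Figure D5:**
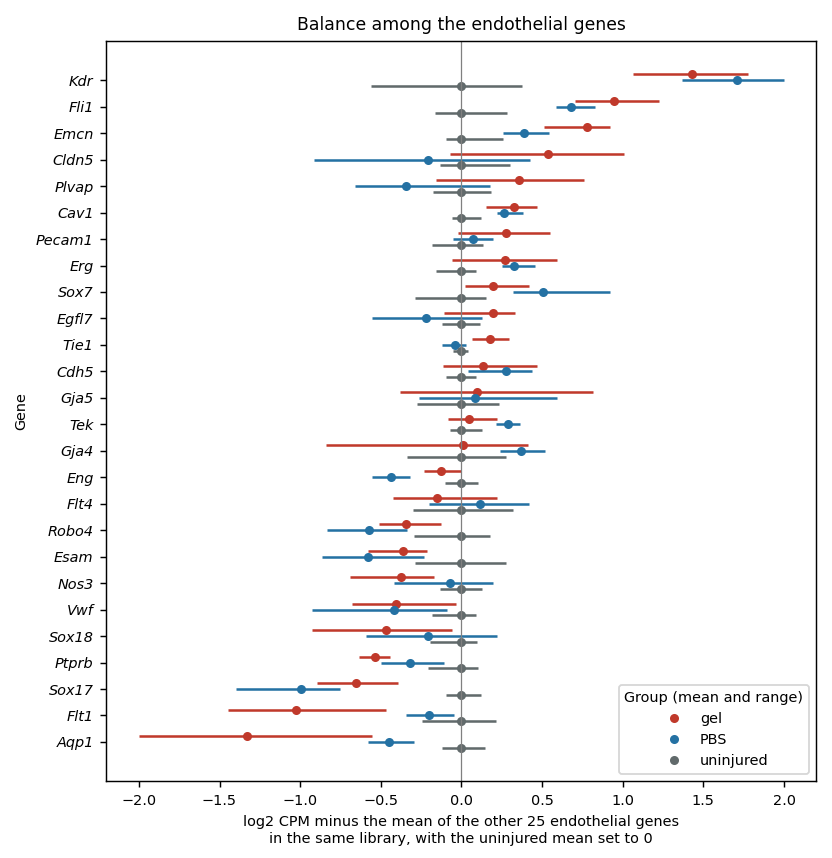
Each of the 26 endothelial genes (rows) relative to the mean of the other 25 in the same library, in log2 CPM with the uninjured mean set to 0 (x axis). Points are group means and lines the range of 4 libraries, with gel above PBS above uninjured in each row. Kdr lies at the top with gel and PBS ranges above the uninjured one, and Sox17, Flt1 and Aqp1 lie at the bottom.

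Further genes of the same pathways were counted from 7 lists of 105 genes, of which 98 were tested. Between gel and PBS muscle 8 rose and 9 fell, with a median of -0.05. Between PBS and uninjured muscle 2 rose and 9 fell, with a median of -0.17, and between gel and uninjured muscle 12 rose and 22 fell, with a median of -0.34. As for the members, these shares stand beside 16.6% and 13.2%, 2.79% and 3.39%, and 14.5% and 11.1% of all genes.

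Of 17 tested genes of VEGF and oxygen signalling, 2 rose and 2 fell between gel and PBS muscle. Angptl4, a secreted angiopoietin-like protein gene, averaged 18.4 ± 11.9 CPM in gel and 3.28 ± 1.41 CPM in PBS libraries, and the angiogenesis inhibitor gene Thbs1 averaged 6.64 ± 3.97 CPM in gel and 1.67 ± 1.03 CPM in PBS libraries (SD, n = 4 each). Epas1, the gene of the oxygen-regulated factor HIF-2 alpha, was at 110 to 173 CPM in gel and 186 to 268 CPM in PBS libraries and fell by 0.65 ± 0.16 (edgeR adjusted p = 0.00678). Egln1, which encodes an oxygen sensor that marks HIF for breakdown, fell by 0.84 ± 0.22 (adjusted p = 0.0111). Between PBS and uninjured muscle Ramp2, a partner of the adrenomedullin receptor, fell by 1.28 ± 0.21 (adjusted p = 0.00345) to 46.0 ± 5.74 CPM in PBS muscle, against 112 ± 11.1 CPM in uninjured muscle. The VEGF co-receptor gene Nrp1 rose there by 0.62 ± 0.15 (adjusted p = 0.0248).

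Of 14 Notch and ephrin genes, 1 rose between gel and PBS muscle, the ligand gene Dll1 by 1.00 ± 0.32 (edgeR adjusted p = 0.0279). Between PBS and uninjured muscle 2 fell: the endothelial receptor gene Notch4, at 20.9 ± 5.71 CPM in PBS and 44.5 ± 4.94 CPM in uninjured libraries, and the venous receptor gene Ephb4, at -0.56 ± 0.16 (adjusted p = 0.0441). Between gel and uninjured muscle 3 rose and 3 fell, with Notch4 at -1.23 ± 0.26, the Notch target gene Hey1 at -1.02 ± 0.30 and Hes1 at 0.55 ± 0.16. Hey1 was also at -1.03 ± 0.30 between PBS and uninjured muscle (edgeR adjusted p = 0.0557), and at 0.01 ± 0.31 between gel and PBS muscle.

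Of 14 tested genes of PDGF, BMP, sphingosine phosphate and endothelin signalling, 1 fell between gel and PBS muscle, the BMP receptor gene Bmpr2, which fell by 0.69 ± 0.16 (edgeR adjusted p = 0.00624). The 3 that fell between PBS and uninjured muscle were the ligand gene Pdgfd at -1.29 ± 0.35, the BMP target gene Id1 at -1.01 ± 0.22 and the endothelin receptor gene Ednrb at -0.79 ± 0.19 (adjusted p = 0.0371, 0.0121 and 0.0212). Between gel and uninjured muscle 2 rose and 5 fell, with Pdgfd at -2.07 ± 0.36 and S1pr1, the endothelial receptor gene for sphingosine phosphate, at -1.45 ± 0.32.

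Other endothelial genes numbered 26, of which 2 rose and 5 fell between gel and PBS muscle. Podxl, a sialomucin gene, fell by 1.00 ± 0.27 to 24.8 ± 9.35 CPM in gel muscle, against 49.5 ± 17.5 CPM in PBS muscle (edgeR adjusted p = 0.0149). Lyl1, a factor gene of endothelial and blood cells, rose by 1.48 ± 0.29 (adjusted p = 0.00322), as did Nostrin, whose product traffics endothelial nitric oxide synthase, by 1.94 ± 0.52 (adjusted p = 0.0130), while Cyyr1 fell by 1.36 ± 0.40 (adjusted p = 0.0200). Nostrin was low throughout, at 0.488 to 2.51 CPM in gel and 0.286 to 0.480 CPM in PBS libraries. Lyl1 was at 4.70 to 16.3 CPM in gel libraries and is also made by leukocytes, whose markers rose in 4 of 5 tested cases, and the part of these cells was not tested. Between PBS and uninjured muscle 1 rose and 2 fell, among them Gpihbp1, which holds lipoprotein lipase on capillaries, at 45.1 ± 5.17 CPM in PBS and 94.5 ± 8.14 CPM in uninjured libraries (-1.07 ± 0.22, adjusted p = 0.0103). Between gel and uninjured muscle 8 fell, with Adgrf5 at -1.53 ± 0.26 and Gpihbp1 at -1.13 ± 0.22, and 2 rose.

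The adhesion molecule genes Icam1 and Vcam1, which endothelium makes when activated and which other cells make as well, rose between gel and PBS muscle by 1.97 ± 0.46 and 1.39 ± 0.34 (edgeR adjusted p = 0.00831 and 0.00813). Icam1 ranged from 2.56 to 17.3 CPM in gel and from 2.04 to 3.90 CPM in PBS libraries. Nr2f2, a factor gene of veins, fell by 0.62 ± 0.15 (adjusted p = 0.00802), and the venule receptor gene Ackr1 fell by 1.76 ± 0.44 between PBS and uninjured muscle (adjusted p = 0.0264). Ackr1 was low, at 0.851 ± 0.390 CPM in PBS and 2.92 ± 0.743 CPM in uninjured libraries (SD). Of 4 tested lymphatic markers 1 rose between gel and PBS muscle, Pdpn by 1.07 ± 0.28 (adjusted p = 0.0115), which fibroblasts also make. Of 17 further mural genes 0 passed between gel and PBS or between PBS and uninjured muscle, and 1 rose and 1 fell between gel and uninjured muscle.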

How the data were processed

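Raw read counts per gene of 12 bulk RNA libraries were used as deposited. Per the submitters' processing notes the authors used STAR, the mm39 build and edgeR, with no version named. The counting program, strand setting and annotation were not named there, so overlapping and antisense genes may share counts. Counts were tested with edgeR 4.0.16 in R 4.3.3: filtering by expression, TMM scaling and the quasi-likelihood test over all 12 libraries, with 9 residual degrees of freedom and Benjamini-Hochberg adjustment over 13499 genes. Library totals of 15626086 to 22182483 set the counting precision. CPM values are TMM-scaled, with a prior count of 2 on the log2 scale. The SE of a log2 fold change is its size divided by the square root of the F statistic of its test.

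The 42 genes and all marker and pathway lists were chosen with earlier results of these data known. Values per library are given for genes past the threshold, for those of smallest p in each class, and for Vegfa, Angpt1, Angpt2, Pecam1, Cdh5, Kdr, Rgs5, Pdgfrb and Acta2. From each pathway list up to 4 genes of smallest p past the threshold were eligible to be named. DESeq2 1.42.0, limma voom (3.58.1), other scalings, no filter, only 2 groups, a replicate block and leaving out each library were tried. Gel and PBS libraries of 1 number come from 1 animal by their deposited names, and the correlations of their deviations from the group means were 0.14, -0.06, 0.31 and 0.08. No libraries of a group agreed within counting noise (lowest chi-square per gene 6.50, over genes with at least 20 reads). The number of sample columns left unused was 0. The code was tested on simulated data.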

Additional observations from a re-analysis of the deposited data

Results flagged for a closer look

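In 10 of 126 sets of 4 libraries (42 genes in 3 groups) 1 library stood far from the other 3 by Dixon's ratio at its 95% critical value, the ratio being the gap to the nearest library over the whole range. Chance gives about 1 in 20 such sets. Gel library 1 was the high one in 6 of the 10: Dll4 had a ratio of 0.981, Nos3 of 0.951, Kdr of 0.859, Notch3 of 0.854, Ptprb of 0.847 and Flt4 of 0.8292. Among PBS libraries, library 1 was low for Vegfb (0.916) and library 3 low for Mcam (0.886). Among uninjured libraries, library 3 was low for Sox17 (0.891) and library 1 high for Cldn5 (0.859).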

How the results depend on the processing

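Between gel and PBS muscle, 4 of the 42 genes fell in 13499 tested. The number was 2 with upper-quartile scaling, 1 with no filter on low counts and 0 with the 2 groups alone, which called 2559 genes where the fit over all libraries called 4022. With the replicate block 3 fell, Ptprb, Aqp1 and Flt1, and 2971 genes were called. Between PBS and uninjured muscle DESeq2 called 1417 genes, where edgeR called 833, with 5 of the 42 lower and 1 higher, and the 2 groups alone called 2339, with 7 lower and 2 higher. Between gel and uninjured muscle DESeq2 called 3975 genes, where edgeR called 3449, with 15 of the 42 lower and 2 higher. The count higher there was 0 with RLE scaling, 2 with upper-quartile scaling, 0 with no filter and 0 with the 2 groups alone. The cause was not tested. Leaving out each library in turn gave 2456 to 5962 genes, 0 to 20 lower and 0 to 1 higher between gel and PBS, 378 to 1693 genes, 1 to 5 lower and 0 to 1 higher between PBS and uninjured, and 2275 to 5341 genes, 6 to 23 lower and 0 to 3 higher between gel and uninjured muscle. Log2 fold changes near 0 changed sign. Between gel and PBS muscle upper-quartile scaling gave 0.018 for Esam, 0.022 for Robo4 and 0.040 for Sox17. Limma voom gave -0.022 for Cdh5 between PBS and uninjured muscle and -0.047 for Acta2 between gel and uninjured muscle, where upper-quartile scaling gave 0.022 for Angpt1. Over the left-out libraries, gel against PBS ran from -0.32 to 0.043 for Pecam1, -0.47 to 0.10 for Esam, -0.40 to 0.13 for Robo4, -0.23 to 0.16 for Sox17, -0.19 to 0.26 for Pdgfrb, -0.054 to 0.36 for Acta2 and -0.12 to 0.22 for Angpt2. PBS against uninjured ran from -0.14 to 0.19 for Cdh5, -0.30 to 0.046 for Flt4 and -0.12 to 0.17 for Erg, and gel against uninjured from -0.10 to 0.054 for Angpt1 and -0.25 to 0.16 for Acta2. With no filter the median of all genes between gel and PBS muscle was 0.17, where it was 0.04 with the filter. For the genes given library by library, 1231 values over all settings kept direction and side of the threshold. Another 39 passed only in the alternative, 68 lost the call and 37 changed sign. Genes given only by ranges, fold changes or counts were left out of this tally, though some of their calls changed too. Setting each endothelial gene against the others was added after the data had been seen.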

Other observations

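Markers of other cells not described above were counted in the same way, between gel and PBS muscle.
Of 4 tested platelet genes 1 rose, with sums of 5.49 to 34.6 CPM in gel, 2.77 to 6.01 CPM in PBS and 3.42 to 6.37 CPM in uninjured libraries. Leukocyte markers summed to 14.2 to 190.4 CPM in gel, 6.98 to 14.7 CPM in PBS and 8.38 to 12.3 CPM in uninjured libraries. Of 5 satellite cell genes 1 fell, and of 5 Schwann cell, 2 tested adipocyte and 1 tested erythroid genes 0 passed with edgeR, where 0, 1 and 1 had an unadjusted p under 0.05. Schwann cell genes summed to 21.1 to 142 CPM in gel, 17.4 to 151 CPM in PBS and 57.1 to 101 CPM in uninjured libraries. Aplnr counts were 0.477 ± 0.185 times the Pecam1 counts in gel, 0.347 ± 0.0924 times in PBS and 0.188 ± 0.0204 times in uninjured libraries (SD, n = 4 each), and all 8 injected libraries lay above all uninjured ones. Angpt2 counts were 0.663 ± 0.263 times the Angpt1 counts in gel, 0.446 ± 0.154 times in PBS and 0.8287 ± 0.129 times in uninjured libraries, and the uninjured libraries lay above all PBS libraries.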
